A study of Mus musculus with 2 samples.

Results

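The genes of lysosomal enzymes, lysosomal membrane proteins and the vacuolar proton pump were followed through the cell classes of the embryonic mouse eye. The 43 members were taken by symbol from a list written for this work, and all 43 were found among the 31053 genes of the count tables. They comprised 28 lysosomal genes (8 cathepsins, 6 glycosidases, 7 lipid handling and other soluble proteins and 7 membrane proteins) and 15 genes of the proton pump (5 of the V0 sector, 8 of the V1 sector and 2 accessory proteins). The list sets no threshold on a measured value. Single cells of e13.5 eye cups, freed of cornea, lens and optic nerve, were measured in 2 libraries, 1 per genotype. The control library came from *Myrf* fl/fl embryos, in which the floxed alleles of the transcription factor gene *Myrf* are intact, and the mutant library from *Rx>cre Myrf* fl/fl embryos, in which an *Rx* transgene drives Cre recombinase in the early eye field. Both groups were therefore homozygous for the floxed allele, and the controls lacked the Cre transgene. Each library pooled 3 samples, so there was 1 measurement per genotype, no test could be made, and the 95% intervals given here cover counting error only.

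Lysosomes break down proteins, glycans and lipids with hydrolases that work at acid pH. That pH is set by the vacuolar proton pump, whose V1 sector hydrolyses ATP in the cytosol and whose V0 sector carries protons through the membrane. In the retinal pigment epithelium (RPE) the same machinery later digests the outer segment tips shed by photoreceptors, melanosomes share part of their membrane proteins with lysosomes, and macrophages use lysosomes to degrade the cells they engulf.

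After filters on genes, mitochondrial share and doublets, 5451 of 6039 control barcodes and 6309 of 6754 mutant barcodes were kept, with medians of 11331 and 11160 UMIs (unique molecular identifiers) per cell. The whole libraries held 63483835 and 75228861 UMIs, and 72 barcodes occurred in both. The cells fell into 29 clusters, of which 22 were named from marker lists as 14 classes written X-like, and 7 clusters with 29.2% of control and 26.1% of mutant cells stayed unnamed. RPE-like cells numbered 259 in control and 153 in mutant cells, melanoblast-like cells 34 and 25, and macrophage-like cells 126 and 137. *Pax3*, a marker of neural crest melanoblasts, had 0 UMIs in the RPE-like cells of both libraries and 137 and 93 UMIs in the melanoblast-like cells. The targeted gene followed the labels, since *Myrf* stood at 74.1 CPM (62.9 to 86.8, 155 UMIs) in control and 20.1 CPM (30 UMIs, upper bound 28.6) in mutant RPE-like cells. CPM is the summed count of a gene per 1000000 UMIs of its class and library, and because each transcript is counted once at its 3′ end it is not divided by gene length.

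The members together took the largest part of the transcripts in macrophage-like and RPE-like cells and the smallest in red blood cell-like cells. Their summed UMIs made up 1.20% of all UMIs in control and 1.60% in mutant macrophage-like cells. In RPE-like cells they made up 1.08% and 0.938%, and in melanoblast-like cells 0.687% and 0.678%. Every other named class lay below these 3 classes in both libraries, with photoreceptor precursor-like cells next at 0.471% and 0.485% and retinal progenitor-like cells, the cells from which the retinal neurons arise, at 0.276% and 0.280%. Red blood cell-like cells, in which lysosomal transcripts are expected to be scarce, gave 0.0484% and 0.0564%.

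**Figure D1:**
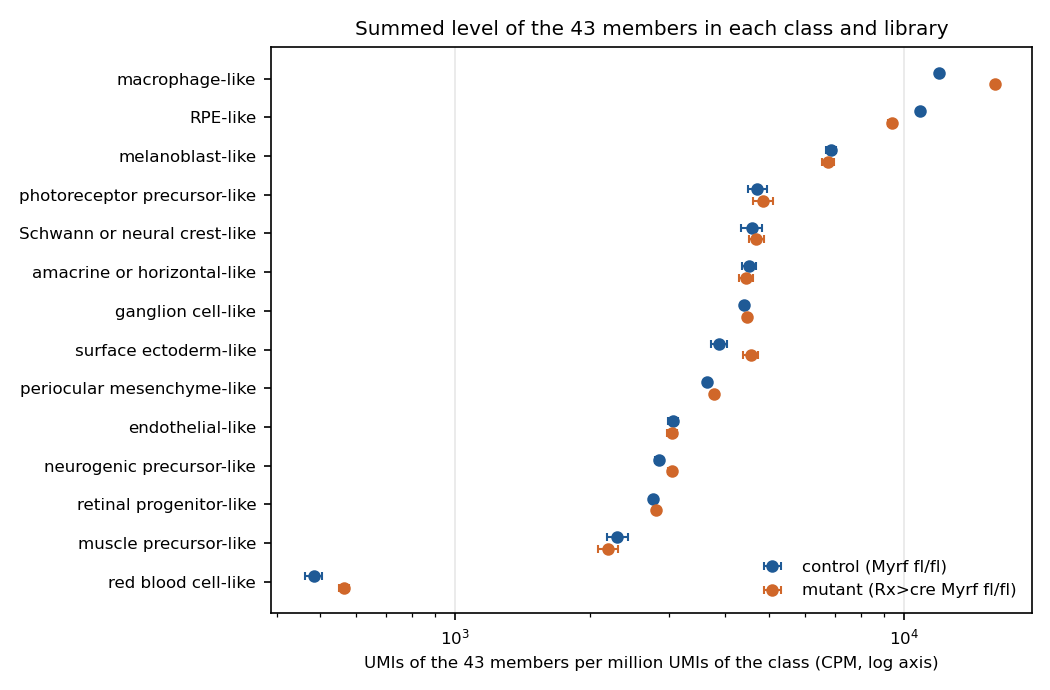
Summed UMIs of the 43 members as a percent of all UMIs of a cell class, for each class in the control and the mutant library, with 95% intervals that cover counting error only. The macrophage-like, RPE-like and melanoblast-like cells stand above every other class in both libraries, from 0.678% to 1.60%.

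The same order held cell by cell. Among cells with at least 3000 UMIs, the median share of the members was 1.15% over 133 control and 0.963% over 80 mutant RPE-like cells, with quartiles of 0.920% to 1.28% and 0.816% to 1.12%. Macrophage-like cells were the most uneven class, with a median of 1.20% over 78 control and 1.41% over 82 mutant cells and highest cells at 3.27% and 5.12%. The melanoblast-like medians were 0.690% and 0.668%. These were well above the progenitor-like medians of 0.265% and 0.274%. Cells of one library share their source, so these medians describe 2 libraries and not replicates of a genotype.

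**Figure D2:**
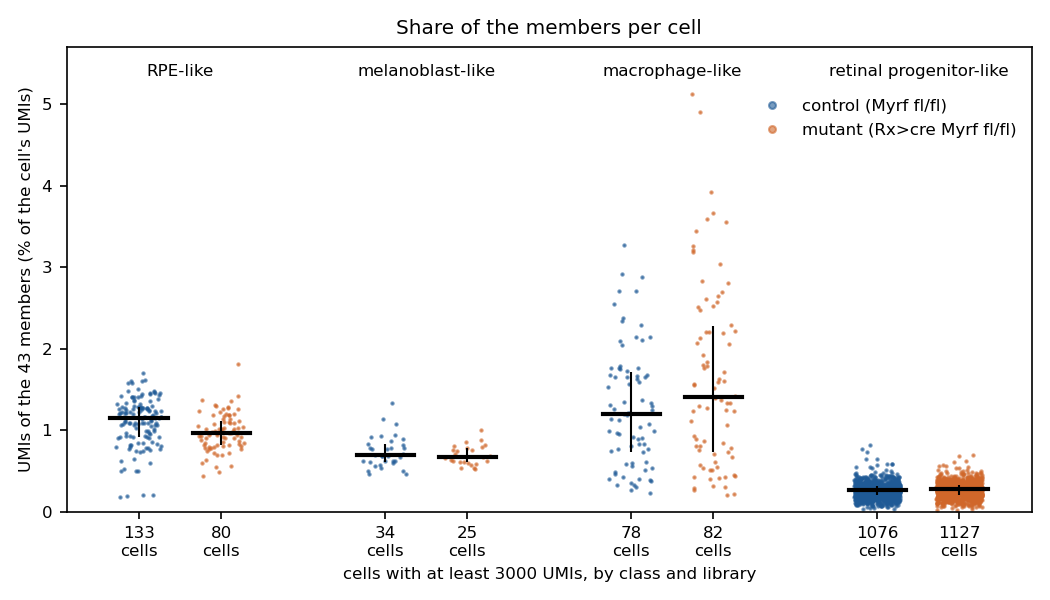
Percent of each cell's UMIs that came from the 43 members, in cells with at least 3000 UMIs, by class and library; each point is a cell, the horizontal bar the median and the vertical bar the quartiles. The RPE-like medians are 1.15% in control and 0.963% in mutant cells, and macrophage-like cells spread up to 3.27% and 5.12%.

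Set against retinal progenitor-like cells of the same library, most members were higher in the 3 high classes. A member was compared where the 2 sums held at least 50 UMIs together, and called where it was at least 2-fold higher. In RPE-like cells 34 of 41 members passed in the control and 29 of 40 in the mutant library, against 16.4% and 13.4% of all genes compared. In macrophage-like cells 32 of 42 and 38 of 42 passed, against 13% and 14.0% of all genes. In melanoblast-like cells the counts were 24 of 41 and 22 of 40, against 11.2% and 10.7%. No member was at least 2-fold lower in any of the 3 classes. The median member ratio in control cells was 1.73 on the log2 scale in RPE-like, 1.71 in macrophage-like and 1.09 in melanoblast-like cells, where the medians over all genes compared were 0.12, -0.28 and 0.040. By CPM alone RPE-like cells ranked first of all named classes for 20 members in the control but 8 in the mutant library, and macrophage-like cells for 16 and 26. Many of these first places lay within counting error of the second class. In the control, RPE-like and macrophage-like cells stood at 47.4 and 46.8 CPM for *Ppt1* and at 71.8 and 70.8 CPM for *Atp6ap1*. No share of all genes is given beside these ranks, so the counts are a description only. The 5 members with the largest ratios over progenitor-like cells of the control library were *Ctsc*, *Ctsd*, *Cd63*, *Lipa* and *Grn* in RPE-like cells, from 3.90 down to 2.87 on the log2 scale. They were *Ctss*, *Ctsh*, *Ctsc*, *Ctsb* and *Grn* in macrophage-like cells, from 11.74 to 4.18, where the ratio of *Ctss* had an interval of 10.47 to 15.38 because progenitor-like cells held 2 UMIs of it. In melanoblast-like cells they were *Lipa*, *Atp6v1e1*, *Cd63*, *Hexa* and *Neu1*, from 2.50 to 2.04.

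**Figure D3:**
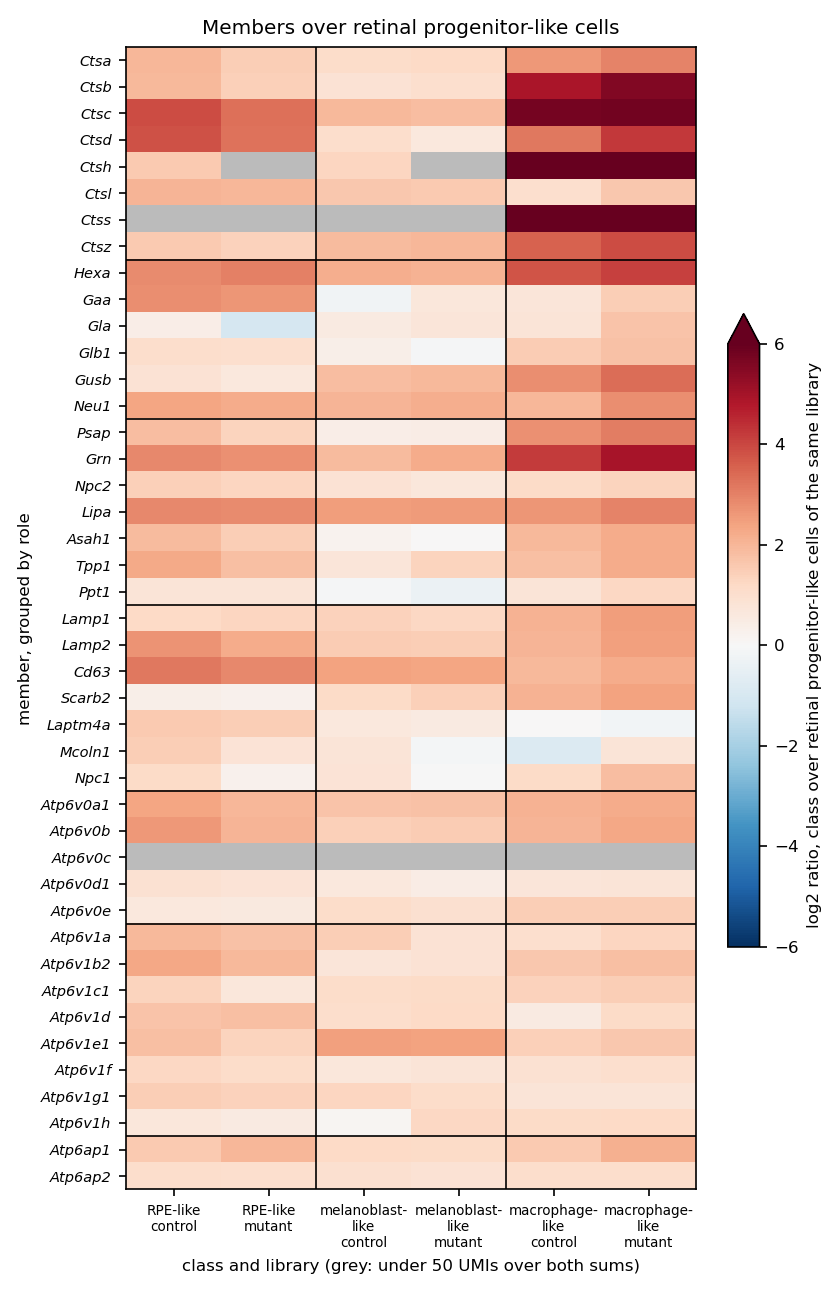
log2 ratio of each member in RPE-like, melanoblast-like and macrophage-like cells over retinal progenitor-like cells of the same library, with members grouped by role. RPE-like cells exceed a log2 ratio of 1 for 34 of 41 members compared in the control, and *Ctss* stands apart in macrophage-like cells at 11.74.

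The cathepsins, the proteases of the lysosome, showed the largest ratios between classes in RPE-like and macrophage-like cells. *Ctsd*, the main aspartic endopeptidase, stood at 1027 CPM in control and 748 CPM in mutant RPE-like cells. In progenitor-like cells it stood at 73.1 and 76.9 CPM, and in melanoblast-like cells at 149 and 118 CPM. RPE-like cells thus exceeded progenitor-like cells by 3.81 (3.71 to 3.92) on the log2 scale in the control library. *Ctsc*, dipeptidyl peptidase I, had 306 UMIs (146.4 CPM) in control RPE-like and 155 UMIs (9.76 CPM) in control progenitor-like cells, a log2 ratio of 3.90 (3.62 to 4.19) that was the largest of any member in that class. *Ctsl*, a cysteine endopeptidase, was abundant in RPE-like cells too, at 1053 and 1041 CPM, but was also high in melanoblast-like cells at 783 and 789 CPM, and its interval in control RPE-like cells overlapped the interval of the Schwann or neural crest-like class (928 CPM). *Ctsb*, which acts as endopeptidase and peptidyl-dipeptidase, was a macrophage transcript first, with 1513 and 2407 CPM there against 196 and 134 CPM in RPE-like cells. *Ctss*, the cysteine protease that trims the invariant chain in antigen-presenting cells, was the most class-bound member, with 1163 and 1355 UMIs in macrophage-like cells, 2 and 1 UMIs in the far more numerous progenitor-like cells and 0 in RPE-like and melanoblast-like cells of both libraries. The 0 in RPE-like cells still allows an expected class sum of 3 UMIs. *Ctsh*, an aminopeptidase, likewise stood at 246 and 282 CPM in macrophage-like cells and at 8.13 and 4.68 CPM in RPE-like cells. *Ctsz*, a carboxypeptidase, was highest in macrophage-like cells (918 and 1196 CPM), next in melanoblast-like cells (294 and 314 CPM), and stood at 228 and 208 CPM in RPE-like cells. *Ctsa*, the protective protein that also stabilises neuraminidase, stood at 252 and 352 CPM in macrophage-like and 162 and 122 CPM in RPE-like cells.

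Among the glycosidases, *Hexa*, the alpha subunit of beta-hexosaminidase, was the most counted glycosidase in RPE-like cells, with 421 and 319 UMIs (201 and 213 CPM) against 28.3 and 26.5 CPM in progenitor-like cells. *Gaa*, the acid alpha-glucosidase that breaks down glycogen, was a transcript of RPE-like rather than macrophage-like cells, at 92.8 and 73.6 CPM against 21.7 and 32.6 CPM. *Gusb*, beta-glucuronidase, showed the opposite order, with 35.4 and 30.8 CPM in RPE-like and 136 and 201 CPM in macrophage-like cells. *Neu1*, the lysosomal sialidase, was similar in the 3 high classes of the control library, at 54.1, 42.5 and 41.8 CPM in RPE-like, melanoblast-like and macrophage-like cells. *Glb1*, beta-galactosidase, was above progenitor-like cells by 1.05 on the log2 scale in control RPE-like and by 1.53 in control macrophage-like cells, and *Gla*, alpha-galactosidase A, was sparse, with 17 and 4 UMIs in RPE-like cells.

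*Npc2*, a soluble cholesterol carrier, had the most UMIs of the soluble lipid handling group in each of the 4 classes examined here, with 614 and 540 CPM in RPE-like, 504 and 558 CPM in macrophage-like and 229 and 220 CPM in progenitor-like cells. The highest ratios over progenitor-like cells in this group were those of *Lipa*, the acid lipase, and *Grn*, progranulin, whose control RPE-like ratios were 2.90 (2.52 to 3.28) and 2.87 (2.63 to 3.10) on the log2 scale. *Psap*, the precursor of the saposins that activate sphingolipid hydrolases, stood at 251 and 175 CPM in RPE-like and at 472 and 576 CPM in macrophage-like cells. In melanoblast-like cells *Psap* was at 89.7 and 93.1 CPM, close to the 69.9 and 68.5 CPM of progenitor-like cells. *Asah1*, acid ceramidase, showed the same split, with 184 CPM in RPE-like but 55.5 CPM in melanoblast-like and 48.7 CPM in progenitor-like cells of the control library. *Tpp1*, tripeptidyl peptidase, reached 91.8 and 66.2 CPM in RPE-like cells, and *Ppt1*, a palmitoyl-protein thioesterase, 47.4 and 44.1 CPM.

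Of the membrane proteins, *Cd63*, a tetraspanin of late endosomes and melanosomes, was the most counted member of all in RPE-like cells, with 3389 and 2102 UMIs (1621 and 1406 CPM), some of which a named pseudogene copy could share. It was high in melanoblast-like cells as well (948 and 994 CPM), above macrophage-like cells (680 and 895 CPM) and progenitor-like cells (179 and 190 CPM). *Lamp1*, a glycoprotein that lines the lysosomal membrane, was highest in macrophage-like cells at 723 and 943 CPM, while its relative *Lamp2* was highest in control RPE-like cells at 186 CPM against 118 CPM in macrophage-like cells. *Laptm4a*, a small transmembrane protein, stood at 198 CPM in both macrophage-like and progenitor-like cells of the control library and at 594 CPM in RPE-like cells of both libraries. *Npc1*, the membrane partner of *Npc2*, *Scarb2*, the receptor that carries glucocerebrosidase to lysosomes, and *Mcoln1*, a calcium channel of the lysosome, were sparse in RPE-like cells, at 39, 36 and 28 control UMIs. *Mcoln1* was at 2.23 CPM in control macrophage-like cells, on 4 UMIs, and at 4.85 CPM in progenitor-like cells.

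The proton pump genes were higher in RPE-like cells than in progenitor-like cells, and their order between RPE-like and macrophage-like cells differed by subunit. *Atp6v1a*, *Atp6v1b2*, *Atp6v1d* and *Atp6v1f* had their highest CPM in RPE-like cells of both libraries. In the mutant library the interval of each overlapped that of the second class. Ganglion cell-like cells stood above RPE-like cells for *Atp6v1h*, at 66.5 and 76.9 CPM against 29.2 and 27.4 CPM. They stood near them for *Atp6v1g1* (709 and 748 against 756 and 728 CPM) and *Atp6v0d1* (171 and 172 against 164 and 144 CPM). *Atp6v0b*, a proteolipid of the proton-carrying ring, stood at 740.0 and 511 CPM in RPE-like, 505 and 603 CPM in macrophage-like, 331 and 348 CPM in melanoblast-like and 123 and 123 CPM in progenitor-like cells. *Atp6v0d1*, of the central stalk, and *Atp6v0e*, a small V0 subunit, were among the flattest members, with control RPE-like ratios over progenitor-like cells of 0.92 and 0.65. The ring subunit *Atp6v0c* was counted 12 and 6 times in RPE-like cells, and its level is uncertain because *Atp6v0c* has named pseudogene copies that could share its reads. In the V1 sector, *Atp6v1g1* and *Atp6v1f*, small stalk and rotor subunits, had the most UMIs, with 1580 and 1088 and with 1161 and 750 in RPE-like cells. *Atp6v1e1*, a peripheral stalk subunit, was the one member highest in melanoblast-like cells in both libraries, at 352 and 355 CPM against 221 and 168 CPM in RPE-like and 174 and 203 CPM in macrophage-like cells. The catalytic subunit *Atp6v1a* and its nucleotide-binding partner *Atp6v1b2* were higher in RPE-like cells (80.8 and 164 CPM) than in macrophage-like cells (41.2 and 101 CPM) of the control library. *Atp6v1d*, the central rotor, stood at 170 and 163 CPM in RPE-like cells, and *Atp6v1c1* and *Atp6v1h*, regulatory subunits, at 47.4 and 29.2 CPM in the control. The accessory proteins *Atp6ap1* and *Atp6ap2*, which help to assemble the pump, were about equal in RPE-like (71.8 and 126 CPM) and macrophage-like cells (70.8 and 124 CPM) of the control library.

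Of 7 pump subunits with paralogues, the shares within the a, B and e subunits differed most between classes. The a subunit, which lines the proton path and directs the pump to membranes, is encoded by *Atp6v0a1*, *Atp6v0a2*, *Tcirg1* and *Atp6v0a4*, of which only the first is a member. In progenitor-like cells *Atp6v0a1* held 45.8% (41.1% to 50.6%) of 441 control and 49.9% of 419 mutant UMIs of the subunit, and *Atp6v0a2* held 48.1% and 46.3%. In RPE-like cells *Atp6v0a1* held 75.8% (68.9% to 81.9%) of 178 control and 66.1% (56.8% to 74.6%) of 118 mutant UMIs, a share near the 75.7% and 72.4% of ganglion cell-like cells. *Tcirg1*, the form known from osteoclasts, held 29.1% (22.5% to 36.3%) and 36.4% in macrophage-like cells against 6.18% and 5.08% in RPE-like cells. A high *Tcirg1* share was not particular to macrophage-like cells. It was 29.1% and 21.0% in endothelial-like, 35% and 25.7% in Schwann or neural crest-like and 15.5% and 21.7% in melanoblast-like cells. The gap in the *Atp6v0a1* share between RPE-like and progenitor-like cells exceeded counting error in both libraries, and that between control and mutant RPE-like cells did not, since their intervals overlapped. For the B subunit, the kidney form *Atp6v1b1* held 12.7% (10.1% to 15.6%) and 11.3% in progenitor-like cells and 0 of 342 UMIs in control RPE-like cells. For the e subunit, *Atp6v0e2* held 16.2% and 18.1% in RPE-like and 18.7% and 19.3% in progenitor-like cells, but 2 of 588 and 2 of 586 UMIs in macrophage-like cells. Its share was also low in endothelial-like cells, at 2.27% and 1.17%. Within the C, d, E and G subunits the members *Atp6v1c1*, *Atp6v0d1*, *Atp6v1e1* and *Atp6v1g1* held at least 95.7% in RPE-like, melanoblast-like, macrophage-like and progenitor-like cells of both libraries. Paralogues can differ in how well their 3′ ends are captured, so a share is compared between classes and not read as an absolute proportion.

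**Figure D4:**
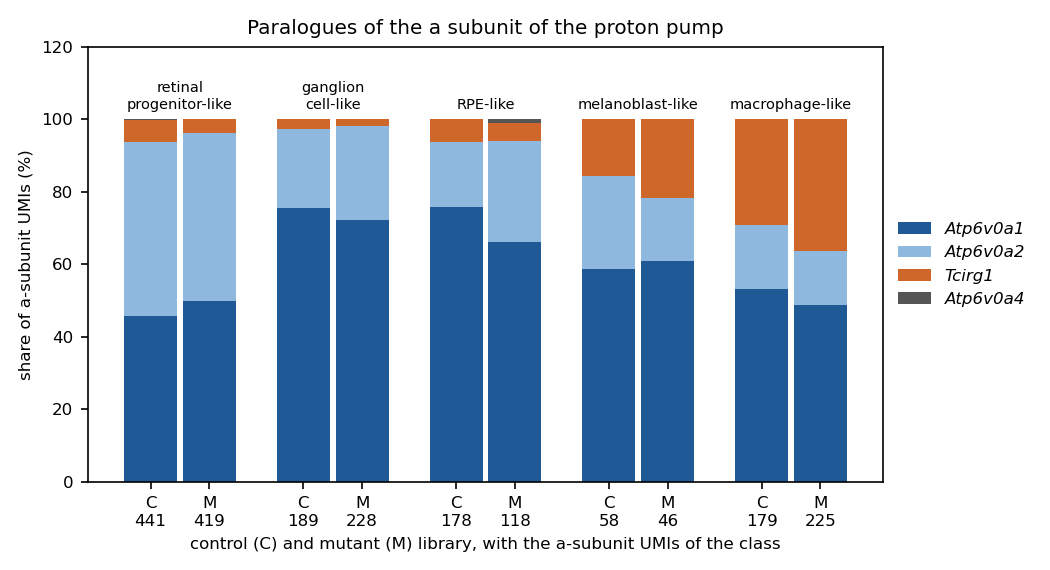
Shares of the UMIs of *Atp6v0a1*, *Atp6v0a2*, *Tcirg1* and *Atp6v0a4* within the a subunit of the proton pump, as stacked bars for 5 classes in the control (C) and mutant (M) library, with the number of UMIs under each bar. *Atp6v0a1* holds 45.8% of control progenitor-like and 75.8% of control RPE-like UMIs, and *Tcirg1* holds 29.1% of control macrophage-like UMIs.

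Because the members were high together in the same classes, their promoters were searched for the sequence CACGTG, the E-box core bound by basic helix-loop-helix factors, for its extension TCACGTGA, held by the CLEAR element that *Tfeb* and the other MiT family factors (*Mitf*, *Tfe3* and *Tfec*) are known to bind, and for the variant CATGTG. Both strands were searched, each TCACGTGA also counts as a CACGTG, and neither holds CATGTG. A gene was counted where any of its windows held the letters. RefSeq windows on GRCm38.p6, from 250 bases before to 50 bases after a start, were at hand for 35 of the 43 members. CACGTG was present for 12 of 35 members (34.3%) against 8.09% of 27025 genes, TCACGTGA for 7 of 35 (20%) against 1.12%, and CATGTG for 9 of 35 (25.7%) against 15.9%. Among genes in the members' middle range of GC content the shares of all genes were 9.37%, 1.37% and 16.1%. CACGTG occurred in windows of 8 of 24 lysosomal and 4 of 11 pump members, so both kinds of gene carried it. The windows printed here, 150 bases each and 5′ to 3′ on the strand of the gene, are those of 6 members with a match, chosen to show single, repeated and extended copies, and of *Ctsc*, which had the largest RPE-like ratio over progenitor-like cells and no match; capitals mark CACGTG or TCACGTGA.
Ctsd, chr7:142387828-142387977, reverse strand: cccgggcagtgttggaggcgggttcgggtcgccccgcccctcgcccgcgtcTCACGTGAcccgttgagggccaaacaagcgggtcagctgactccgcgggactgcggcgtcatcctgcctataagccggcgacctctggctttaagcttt
Ctsa, chr2:164833623-164833772, forward strand: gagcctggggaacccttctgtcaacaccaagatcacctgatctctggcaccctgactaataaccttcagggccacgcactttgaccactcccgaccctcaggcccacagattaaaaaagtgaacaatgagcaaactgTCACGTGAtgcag
Mcoln1, chr8:3500369-3500518, forward strand: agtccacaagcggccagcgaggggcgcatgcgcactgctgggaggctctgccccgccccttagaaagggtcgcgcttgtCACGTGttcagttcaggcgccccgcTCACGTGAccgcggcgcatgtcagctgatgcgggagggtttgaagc
Lamp1, chr8:13159011-13159160, forward strand: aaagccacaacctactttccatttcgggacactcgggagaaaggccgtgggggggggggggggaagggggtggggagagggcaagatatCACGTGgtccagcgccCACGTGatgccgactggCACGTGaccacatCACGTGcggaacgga
Atp6v0b, chr4:117887330-117887479, reverse strand: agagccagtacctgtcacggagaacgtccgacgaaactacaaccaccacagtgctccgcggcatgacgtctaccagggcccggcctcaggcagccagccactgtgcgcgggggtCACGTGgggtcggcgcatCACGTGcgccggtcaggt
Atp6v1a, chr16:44139260-44139409, reverse strand: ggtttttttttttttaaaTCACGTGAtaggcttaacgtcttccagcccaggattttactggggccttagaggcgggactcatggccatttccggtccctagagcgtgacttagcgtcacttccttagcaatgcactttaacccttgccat
Ctsc, chr7:88277935-88278084, forward strand: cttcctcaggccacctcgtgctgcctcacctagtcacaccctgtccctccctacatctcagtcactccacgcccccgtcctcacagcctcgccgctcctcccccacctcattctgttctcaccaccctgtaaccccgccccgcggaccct
*Lamp1* held 4 copies of CACGTG in this window and *Atp6v0b* and *Mcoln1* held 2 each. The presence of CACGTG did not sort the members by level. Their median log2 ratio over progenitor-like cells in control RPE-like cells was 1.72 for the 12 members with a match and 1.79 for the 21 compared without one, and the median mutant over control ratio in RPE-like cells was -0.16 over 10 and -0.19 over 21 members. A match is a description of the letters in a window and not a site shown to be bound.

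The comparison of the genotypes asks how these genes stood in the eye after *Myrf* had been removed from the eye field. In RPE-like cells most members were lower in the mutant library by a modest amount. Of 38 members whose 2 sums held at least 50 UMIs, 31 were lower and 7 higher, and the median log2 ratio of mutant over control was -0.19, where that of all 6927 genes compared was -0.03. The intervals of 16 members lay wholly below 0 and of 0 members above it, while 10.6% of all genes had an interval below 0 and 8.43% above. Intervals are narrower for genes with more UMIs, and these shares of all genes were not matched for UMI count. A decrease of at least 0.5 on the log2 scale was seen for 5 of the 38 members, against 10.6% of all genes. An increase of that size was seen for 0 members, against 5.40% of all genes. The sum of the members had a ratio of -0.21 (-0.24 to -0.18).

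Of the 16 members lower beyond counting error, 4 were cathepsins and 5 soluble lipid handling proteins. All 6 cathepsins compared had ratios below 0. *Ctsc* had 306 UMIs (146.4 CPM) in control and 148 UMIs (99.0 CPM) in mutant RPE-like cells, which gave -0.56 (-0.86 to -0.28) on the log2 scale. *Ctsb*, at chr14:63122462-63145923 in the GENCODE annotation of GRCm38, had 409 and 200 UMIs (196 and 134 CPM), a ratio of -0.54 (-0.80 to -0.30). *Ctsd*, at chr7:142375911-142388038, had 2147 and 1118 UMIs (1027 and 748 CPM), a ratio of -0.46 (-0.56 to -0.35). *Ctsa* followed at -0.41 (-0.68 to -0.15). *Ctsl*, with 2201 and 1557 UMIs (1053 and 1041 CPM), was at -0.015 (-0.11 to 0.079), so the most counted cathepsin of these cells was not lower beyond counting error. Of the 7 soluble lipid handling proteins 6 were lower and 5 beyond counting error, led by *Psap* with 525 and 262 UMIs (251 and 175 CPM) at -0.52 (-0.74 to -0.30) and *Tpp1* with 192 and 99 UMIs at -0.46 (-0.84 to -0.12). *Npc2* was lower by less, at -0.19 (-0.31 to -0.058), and *Lipa* was at 0.023 (-0.41 to 0.44). *Hexa*, with 421 and 319 UMIs, was at 0.084 (-0.13 to 0.30). Of the 5 glycosidases compared 3 were lower, and only the interval of *Neu1*, with 113 and 58 UMIs and a ratio of -0.47 (-0.96 to -0.0094), lay below 0.

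The membrane proteins were mixed. *Lamp2* had 389 and 212 UMIs and a ratio of -0.39 (-0.64 to -0.15), and *Cd63* had 3389 and 2102 UMIs and a ratio of -0.21 (-0.28 to -0.13), whereas *Lamp1* was at 0.060 (-0.094 to 0.21) and *Laptm4a*, with 594 CPM in both libraries, showed no difference. *Npc1* had the lowest ratio of any member compared, -0.75, but rested on 39 and 16 UMIs and its interval, -1.74 to 0.071, included 0. In the pump, all 4 V0 and all 8 V1 members compared were lower, by sums of -0.38 (-0.48 to -0.29) and -0.15 (-0.22 to -0.084). Most of the V0 UMIs were those of *Atp6v0b*, at chr4:117884326-117887333, which had 1547 and 764 UMIs (740.0 and 511 CPM) and a ratio of -0.53 (-0.66 to -0.41). *Atp6v1b2* at -0.42 (-0.69 to -0.16), *Atp6v1e1* at -0.39 (-0.62 to -0.17) and *Atp6v1f* at -0.15 (-0.28 to -0.013) were the V1 members lower beyond counting error. The accessory proteins went the other way within counting error, at 0.14 for *Atp6ap1* and 0.10 for *Atp6ap2*.

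The decrease was not seen in every subset or other choice of the RPE-like cells. In cells with under 3000 UMIs the members made up 0.752% of control and 0.802% of mutant UMIs, a log2 ratio of 0.093 (-0.043 to 0.23), and in cells with at least 3000 UMIs the ratio was -0.23. With at most 5% mitochondrial UMIs per cell the ratio was -0.042 (-0.095 to 0.011), and over 5% it was -0.19 (-0.23 to -0.15). The cells over 5% held 1514921 of 2090530 control UMIs and 716144 of 1495060 mutant UMIs of the class. With RPE-like cells taken by a rule applied to each cell in place of clusters the ratio was -0.024. That rule took 451 control and 276 mutant cells with 5384736 and 3735133 UMIs. It took more than the 259 and 153 cells of the class, so its set also held cells from outside the class. With the limit of 2000 UMIs per cell that the study's methods state, the ratio was 0.081. That limit lies far below the medians of 11331 and 11160 UMIs of all kept cells. It left 107 control and 63 mutant RPE-like cells with 104325 and 68057 UMIs. The study's reported median number of genes per cell at e13.5 also exceeds it, so the limit may not describe the cells the study used. The median mitochondrial share of RPE-like cells was 5.19% in control and 4.80% in mutant cells and the median UMI count 3383 and 3853. Markers of the RPE summed to 14479 CPM in control and 10319 CPM in mutant RPE-like cells. Of 14 proliferation genes compared 10 were higher beyond counting error, against 8.43% of all genes, with a median of 0.73. Macrophage markers summed to 30.6 and 24.7 CPM in these cells, with *Ctss* at 0 in both libraries, and red blood cell markers to 1112 and 1390 CPM. The part of these in the lower values was not tested.

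In macrophage-like cells, which do not arise from the eye field, the members stood higher in the mutant library. Of 41 members compared 39 were higher and 2 lower, with a median log2 ratio of 0.34 where that of all genes was -0.02. The intervals of 22 members lay above 0, against 7.32% of all genes, and of 0 members below it, against 9.08% of all genes. These shares of all genes were not matched for UMI count either. A difference of at least 0.5 upward was reached by 8 members, against 6.98% of all genes, and downward by 0, against 6.12% of all genes. *Ctsd* had 1194 UMIs (665 CPM) in the control and 2618 UMIs (1470 CPM) in the mutant library, a ratio of 1.14 (1.05 to 1.24). *Ctsb* had 2715 and 4286 UMIs (1513 and 2407 CPM), a ratio of 0.67 (0.60 to 0.74), and *Ctsl* had 919 and 1429 UMIs (512 and 802 CPM), a ratio of 0.65 (0.53 to 0.77). The order of *Ctsd* between the classes was therefore reversed between the libraries, with RPE-like cells above macrophage-like cells in the control and below them in the mutant library. The other 5 were *Gla* at 0.97 on 19 and 38 UMIs, *Npc1* at 0.84 on 34 and 61 UMIs, *Grn* at 0.59, *Gaa* at 0.57, with an interval that included 0, and *Gusb* at 0.56.

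By role, the macrophage-like sums were highest for the cathepsins at 0.57 (0.53 to 0.61) and lowest for the V0 and V1 sectors, both at 0.14, so the lysosomal contents differed more than the pump. *Atp6v0d1* at -0.056 and *Laptm4a* at -0.046 were the 2 lower members. Summed over all members the ratio was 0.41 (0.39 to 0.44). Of the 13 macrophage markers, all compared, 12 were also higher, 11 beyond counting error, against 7.32% of all genes. Their median was 0.36 and their sums 13462 CPM in control and 16473 CPM in mutant cells. Red blood cell markers in macrophage-like cells summed to 395 and 1305 CPM, and the median mitochondrial share was 3.23% and 3.55%. The median UMI count per cell was 5083 and 4720. The part of these in the higher values was not tested. With the limit of 2000 UMIs per cell, which is below the class medians of 5083 and 4720, the summed ratio was -0.13. For 11 members the interval lay below 0 in RPE-like and above 0 in macrophage-like cells, namely *Ctsa*, *Ctsb*, *Ctsd*, *Psap*, *Grn*, *Npc2*, *Asah1*, *Tpp1*, *Lamp2*, *Cd63* and *Atp6v0b*, and with 1 library per genotype that difference was not tested. There were 38 members compared in RPE-like and 41 in macrophage-like cells. Taken singly, 10.6% of all genes had RPE-like intervals below 0 and 7.32% macrophage-like intervals above 0. The share of all genes with both is not given, so whether 11 is unusual cannot be told.

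In melanoblast-like and progenitor-like cells the median ratio of the members lay close to 0. Of 32 members compared in melanoblast-like cells 12 were lower and 20 higher, with a median of 0.024, and the one interval that excluded 0 was that of *Npc2*, at 422 and 354 CPM and a ratio of -0.25 (-0.50 to -0.0083), while 5.58% of all genes had an interval below 0 and 5.17% above. *Atp6v1a*, at 56.7 and 37.3 CPM, was lower by at least 0.5 and *Tpp1*, at 30.7 and 46.6 CPM, higher, each with an interval that included 0, against 7.01% and 4.88% of all genes. *Cd63* was at 0.068 and *Ctsl* at 0.011 there. With 34 and 25 cells, a difference of the size seen in RPE-like cells could not be resolved for most single members. In progenitor-like cells, which like the RPE descend from the eye field, 42 members had a median of 0.024 and a summed ratio of 0.022 (0.0030 to 0.041). The intervals of 3 of them lay below 0 and of 5 above, against 8.82% and 6.18% of all genes, and 0 differed by 0.5 or more in either direction, against 2.31% lower and 1.44% higher.

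Other genes of the pathway were read from lists beside the members. In RPE-like cells 10.6% of all genes were lower by at least 0.5 and 5.40% higher, with 10.6% of intervals below 0 and 8.43% above. Of 59 further lysosomal genes 38 could be compared there. Of these 9 were lower by at least 0.5 and 10 had intervals below 0, with a median of -0.29. None was higher by that size or beyond counting error. Among them *Gpnmb*, a glycoprotein of melanosomes and lysosomes, had 837 and 343 UMIs and a ratio of -0.80 (-0.99 to -0.62). In macrophage-like cells 27 of 37 of these genes were higher, with a median of 0.16. There 6 intervals lay above 0 and 1 below, against 7.32% and 9.08% of all genes. Of 17 further pump genes 7 could be compared in RPE-like cells and none had an interval that excluded 0. Of the MiT family factors *Mitf* alone had enough UMIs in RPE-like cells, 363 in control and 230 in mutant cells, and its ratio was -0.17 (-0.42 to 0.068). Of 12 melanosome genes compared in RPE-like cells 9 had intervals below 0 and 1 above, against 10.6% and 8.43% of all genes, with a median of -0.34.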

How the data were processed

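Single cells of e13.5 mouse eye cups were measured in 2 libraries, 1 per genotype, from 3 pooled samples each. The authors deposited UMI counts per gene and barcode, made with Cell Ranger 7.1.0 on mm10, for called cells and without normalization. Seurat 4.1.1 is also listed in the submitters' processing notes. Whether intronic reads were counted is not given in the sources used here.

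Barcodes with under 200 genes (5 control and 9 mutant) or over 15% mitochondrial UMIs (515 and 371) were left out. Doublets (68 and 65) were marked with the Scrublet implementation of scanpy 1.11.5 (expected doublet rate 5%) and removed. Cells were clustered in Seurat 5.3.0 under R 4.3.3 after integration, on 30 principal components of 1976 of the 2000 variable features at resolution 0.8, with the members and other lysosomal and pump genes left out of the features. A cluster was named X-like where at least 3 listed markers of a class were each detected in at least 10% of its cells. The mean log2 ratio of all listed markers of that class over other cells also had to be at least 0.5. No other class could have more markers among the cluster's 10 leading genes. A cluster of low depth with none of the class's markers among those genes stayed unnamed. These thresholds were chosen once the clusters were known.

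Sums of counts over each class and library were given as CPM with exact Poisson intervals. Log2 ratios, with 1 UMI added to each sum and exact conditional binomial intervals, and Clopper-Pearson intervals of shares were computed with scipy 1.17.1 at 95%. Members were compared from 50 UMIs over both sums, and called at 0.5 on the log2 scale between genotypes and at 2-fold between classes. Every member was described by role. Full values were given to the 10 members with the largest absolute ratio between genotypes in RPE-like cells, to *Ctsd*, to the 5 with the largest ratio over progenitor-like cells in each of the 3 high classes and to the most counted member of each role, and other genes were chosen after their values were seen. The ratio and its interval were tested on simulated counts. The members and lists were chosen with earlier results of these data known. Alternatives were doublets kept, at most 2000 or 20000 UMIs in a cell, mitochondrial shares up to 5%, every variable feature used, clustering without integration, sums that left out mitochondrial, haemoglobin and ribosomal protein genes, a minimum of 20 UMIs, RPE-like cells chosen singly (UMIs of at least 3 RPE markers and none of *Pax3*), other cells as the reference and means over cells. Those for macrophage-like cells and for cells with at least 3000 UMIs were chosen after seeing the data.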

Additional observations from a re-analysis of the deposited data

Results flagged for a closer look

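*Ctsb*, *Ctsd* and *Cd63* moved in opposite directions in RPE-like cells and in all other kept cells together, each beyond counting error. The log2 ratios of mutant over control were -0.54 in RPE-like cells and 0.18 in the other cells for *Ctsb*, -0.46 and 0.18 for *Ctsd*, and -0.21 and 0.071 for *Cd63*. These other cells include the macrophage-like cells, in which *Ctsb* had 2715 and 4286 and *Ctsd* 1194 and 2618 UMIs. Over all 43 members in the other cells 36 were lower and 7 higher, with a summed ratio of -0.019. Of all 14537 genes compared there 83.4% were lower. The members had 14 intervals below 0 and 4 above, against 46.0% and 3.28% of all genes. Summed over the members, the ratio was -0.21 in RPE-like and 0.41 in macrophage-like cells. With 1 library per genotype these differences between classes were not tested.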

How the results depend on the processing

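The counts of members at least 2-fold above progenitor-like cells kept within 1.5 times their size under every alternative run except 2. With an upper limit of 2000 UMIs per cell they were 5 in RPE-like and 2 in macrophage-like cells, no melanoblast-like cell was left, and no value could be given for that class. With all other cells as the reference the melanoblast-like count was 11. The genotype comparison was less stable. In RPE-like cells the summed log2 ratio was -0.16 with a limit of 20000 UMIs, -0.042 with a mitochondrial limit of 5%, -0.18 without mitochondrial, haemoglobin and ribosomal protein genes and -0.024 by the rule per cell, and it turned to 0.081 with the limit of 2000 UMIs. The number of members lower by at least 0.5 was 0 with the limit of 2000 UMIs, 3 without those gene groups, 1 by the rule per cell and 8 with a minimum of 20 UMIs, and the number higher was 1 with either limit on UMIs and by the rule per cell. With the limit of 2000 UMIs *Ctsb* stood at 0.29, *Neu1* at 0.031, *Tpp1* at 0.62, *Ctsd* at 0.57 and *Ctsa* at 0.41, and by the rule per cell *Ctsc* stood at 0.058 and *Ctsb* at 0.28. The limit of 2000 UMIs left 104325 control and 68057 mutant UMIs in RPE-like cells, against 2090530 and 1495060 in the main run. Ratios of single members under that limit rest on far fewer UMIs, are given without intervals and may lie within counting error. In macrophage-like cells the summed ratio was 0.56 with the limit of 20000 UMIs, 0.32 with the mitochondrial limit of 5% and -0.13 with the limit of 2000 UMIs, where 0 members were higher and 2 lower by at least 0.5, against 14 higher with the limit of 20000 UMIs. The limits also left fewer cells and UMIs, so fewer members could reach the minimum for a comparison. The counts of members in this section are given without the number compared or the share of all genes under each setting. They are therefore not read as a result about the members. Otherwise the cause was not tested. No paired analysis was possible because each genotype had 1 library.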

Other observations

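Surface ectoderm-like cells, which were not among the classes compared above, also held more of the members in the mutant library, at 0.455% of UMIs against 0.387% in the control. The summed log2 ratio was 0.23 (0.16 to 0.31) over 74 control and 70 mutant cells. The cells of the 7 unnamed clusters gave 0.335% in control and 0.346% in mutant cells. In red blood cell-like cells *Ctsb* stood at 79.7 and 72.7 CPM and *Atp6v1g1* at 57.0 and 94.7 CPM. The level of *Ctsb* was above the 51.0 and 50.6 CPM of retinal progenitor-like cells.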
